A study of Mus musculus with 6 samples.

Results

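Precancerous liver of mice that carry the Hras12V oncogene was set against normal liver of wild-type mice. The comparison used 4 of the 6 messenger RNA sequencing libraries of the study, and 11435 of the 34745 genes in the table, those with an FPKM (fragments scaled to gene length and library total) of at least 1 in at least 2 of the 6 libraries. The second-highest FPKM of the genes nearest to that limit was 1.0006 for Airn, just inside, and 0.9996 for Cspp1, just outside. All mice were C57BL/6 and untreated. Precancerous tissue came from Hras12V transgenic mice, 1 library from males of 9 months and 1 from females of 15 months, and was taken beside liver tumours (hepatocellular carcinoma). Normal tissue came from wild-type mice of the same sex and age, 1 library from each cohort. The 2 remaining libraries held the tumours, 1 per cohort; they entered the fit to estimate the spread, and their levels are given beside those of the genes described. Every difference between the 2 tissues is also a difference between 2 genotypes, and sex and age move together between the cohorts, so neither pair of factors can be told apart. The sources used here do not give the promoter that drives the transgene, whether a library held 1 mouse or a pool, or the hour and feeding state at collection.

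Hras12V encodes a RAS protein locked in its active, GTP-bound form, which signals to the kinases RAF, MEK and ERK without a growth factor. Hepatocytes, the main cells of the liver, make cholesterol, bile acids, fatty acids and most plasma proteins. Their cholesterol genes are driven by the membrane-bound factor SREBP-2, which is released when sterols in the endoplasmic reticulum run low and acts together with the CCAAT-binding factor NF-Y. Many of the same metabolic genes follow a daily rhythm set by the circadian clock and by meals, and in mice a large group is expressed at different levels in males and females under the control of growth hormone pulses.

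Library totals were 5996585 and 6891837 counts for male normal and precancerous liver and 17655912 and 15047022 for the female ones. The smallest level that could be told from 0, 3 counts, was 0.170 to 0.500 counts per 1e+06 over these 4 libraries. All 10 hepatocyte markers were tested and none passed in edgeR (1 at an unadjusted p under 0.05; DESeq2 called 1), and their summed level ran from 43100 to 61312 FPKM in normal and from 60607 to 68609 FPKM in precancerous liver. Xist and the Y-linked genes Ddx3y, Eif2s3y, Kdm5d and Uty followed the labelled sex in all libraries. The endogenous Hras gene stood at 3.28 and 3.27 FPKM in male normal and precancerous liver and at 2.05 and 2.22 FPKM in females (log2 fold change 0.05, SE 0.14), and counts of the mouse gene need not include transgene transcripts. None of the 5 tested RAS genes passed in edgeR, where none had an unadjusted p under 0.05, or in DESeq2. Each cohort has 1 library a side, so a p-value here measures only the spread between these libraries.

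Gene positions are those of build GRCm38. A total of 29 genes (0.254% of those tested) passed edgeR's quasi-likelihood test with cohort as a block, at a Benjamini-Hochberg adjusted p under 0.05. Of these, 12 (0.105%) were higher and 17 (0.149%) lower in precancerous than in normal liver. Below, a gene is said to rise or fall only if it passed this test. Another 119 genes had an adjusted p from 0.05 to under 0.1, 59 of them higher and 60 lower. The unadjusted p was under 0.05 for 1807 genes (15.8%), and the smallest adjusted p was 0.0175. Fitted to the 4 normal and precancerous libraries alone, the test called 105 genes higher (0.918%) and 108 lower (0.944%), and all 29 genes were among them. Single libraries decided the count: it was 0 without female precancerous liver, 6 without male normal liver (3 of them among the 29), 13 without male precancerous liver (3 among the 29) and 24 without female normal liver (7 among the 29). It was 211 or 219 without the male or the female tumour library, with all 29 among them. Without cohort as a block no gene was called in edgeR (501 at an unadjusted p under 0.05), while DESeq2 with the block called 368.

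Within each cohort, where a single library stands on each side and no test is possible, genes at least 2-fold apart on the log2(FPKM + 1) scale were counted. The male pair had 219 higher (1.92%) and 202 lower (1.77%), and the female pair 141 higher (1.23%) and 143 lower (1.25%). Both pairs met that size in 53 genes that were higher (0.463%) and 59 that were lower (0.516%). At any size, both pairs were higher in 3569 genes (31.2%) and lower in 3751 (32.8%), the shares against which the list counts below stand. Among the 29 genes called, 11 of the 12 higher and 15 of the 17 lower were at least 2-fold apart in both pairs. The exceptions were Osbpl3, Arhgef10 and Mup11, each low in at least 1 pair, where the pseudocount of 1 shrinks the difference.

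**Figure D1:**
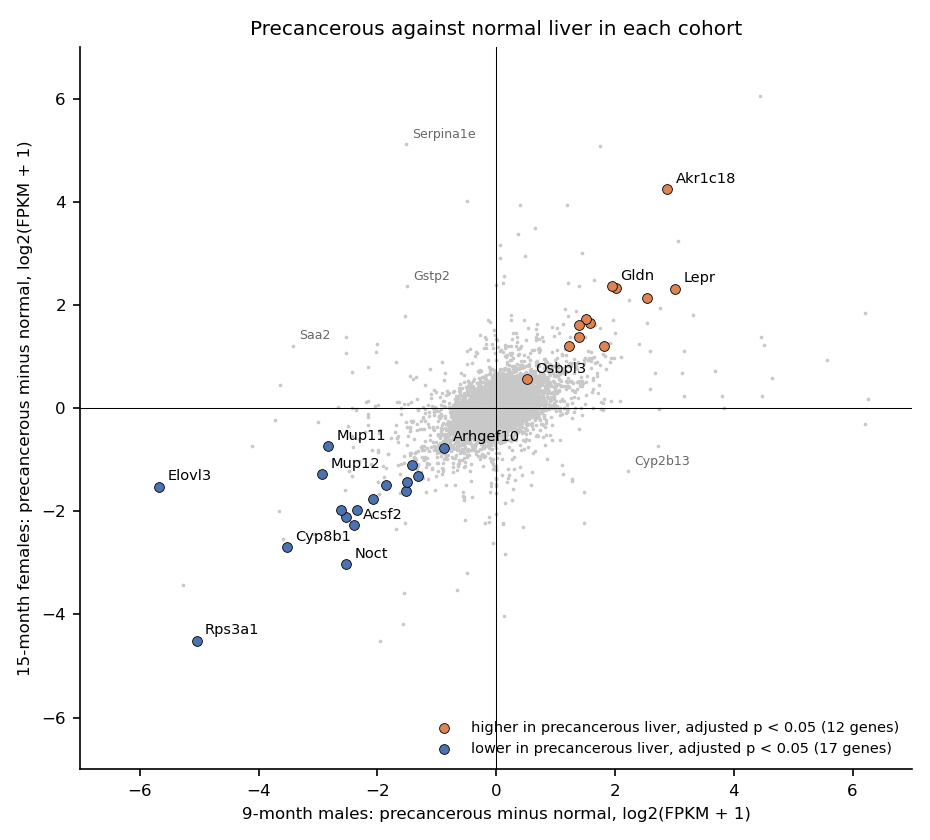
Difference between precancerous and normal liver on the log2(FPKM + 1) scale in 9-month males (horizontal) and 15-month females (vertical), 1 point per tested gene, with the 12 genes called higher in orange and the 17 called lower in blue. The called genes lie in the lower left and upper right quadrants, some of them near the origin. Grey labels mark genes that differ in opposite directions, and 3 genes fall outside the axes.

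Genes of cholesterol synthesis were lower in precancerous liver along most of the pathway. The first stretch, the mevalonate arm, builds farnesyl diphosphate from acetyl-CoA and has 9 listed genes. The second, the squalene arm, makes squalene from farnesyl diphosphate, turns it into cholesterol and has 12. All 21 were tested, and 4 fell, Fdps, Sqle, Cyp51 and Msmo1, against 0.149% of all genes. The fit on the 4 libraries called 15 of the 21 lower and none higher. In 20 of the 21 both pairs were lower, and 14 were at least 2-fold lower in both, against 32.8% and 0.516% of all genes tested. The median log2 fold change was -1.41 in the mevalonate arm and -1.30 in the squalene arm, beside -0.01 for all genes tested. Under DESeq2 size factors or upper-quartile scaling Msmo1 was the 1 member still called, while the arms' medians were -1.40 and -1.29 with the former and -1.41 and -1.29 with the latter. No member was called when any 1 of the 4 normal and precancerous libraries was left out, and 15 were called without either tumour library.

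The promoters of 4 of these genes are shown for the CCAAT box, which NF-Y binds, and for a sterol element bound by SREBP-2. Of the sterol element only the exact letters TCACNCCAC were searched, and of the 4 promoters only that of Hmgcs1 holds them. The sequences are RefSeq promoters of build GRCm38.p6, from 250 bases before to 50 after the start, written 5′ to 3′ on the gene's strand. Capitals mark CCAAT boxes (CCAAT or, on the other strand, ATTGG) and, in Hmgcs1, the sterol regulatory element TCACNCCAC.
Hmgcs1 (chr13:119690101-119690400, plus strand): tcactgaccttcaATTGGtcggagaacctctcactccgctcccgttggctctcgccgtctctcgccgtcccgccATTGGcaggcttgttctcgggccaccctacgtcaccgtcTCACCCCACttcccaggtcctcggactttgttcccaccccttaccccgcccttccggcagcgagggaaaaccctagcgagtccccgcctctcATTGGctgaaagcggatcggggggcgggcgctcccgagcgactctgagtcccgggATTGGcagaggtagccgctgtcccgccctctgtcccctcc
Cyp51 (chr5:4104648-4104947, minus strand): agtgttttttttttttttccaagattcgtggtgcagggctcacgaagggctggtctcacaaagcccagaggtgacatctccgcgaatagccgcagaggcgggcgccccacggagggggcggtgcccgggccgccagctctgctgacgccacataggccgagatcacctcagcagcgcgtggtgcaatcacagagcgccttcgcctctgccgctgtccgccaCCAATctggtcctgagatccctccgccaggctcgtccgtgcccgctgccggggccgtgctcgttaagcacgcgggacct
Msmo1 (chr8:64733529-64733828, minus strand): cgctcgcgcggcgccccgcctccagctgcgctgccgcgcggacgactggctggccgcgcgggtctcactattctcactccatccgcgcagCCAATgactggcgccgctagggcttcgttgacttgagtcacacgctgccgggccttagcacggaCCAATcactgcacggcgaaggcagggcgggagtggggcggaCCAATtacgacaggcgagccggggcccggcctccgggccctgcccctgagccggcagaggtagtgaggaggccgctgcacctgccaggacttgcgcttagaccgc
Nsdhl (chrX:72918271-72918570, plus strand): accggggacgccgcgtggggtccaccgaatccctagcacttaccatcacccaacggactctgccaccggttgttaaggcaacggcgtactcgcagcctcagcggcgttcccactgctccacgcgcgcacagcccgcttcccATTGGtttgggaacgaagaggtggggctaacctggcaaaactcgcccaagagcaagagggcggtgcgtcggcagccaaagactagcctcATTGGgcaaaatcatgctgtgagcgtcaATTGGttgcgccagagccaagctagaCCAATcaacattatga

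Of the 21 genes, 16 matched a promoter in that table by symbol. A CCAAT box, searched on both strands, was present in 15 of the 16 (93.75%), against 41.1% of all 27025 genes with a promoter of that length. The sterol element TCACNCCAC was found in 1 of the 16, Hmgcs1, against 1.44% of all genes. Hmgcs1 and Nsdhl each hold 4 CCAAT boxes, Msmo1 holds 3 and Cyp51 holds 1. The CCAAT box was also frequent in other sets: 14 of 18 clock genes (77.8%), 7 of 9 genes called higher (77.8%) and 7 of 12 called lower (58.3%). A match says only that these letters are in the window, and the lack of one does not exclude an element with other letters.

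Hmgcs1, HMG-CoA synthase, acts near the start of the pathway. It stood at 228 FPKM in male normal liver and 26.3 in male precancerous liver, and at 235 and 42.5 FPKM in the females. Both precancerous libraries lay below both normal ones, yet with a log2 fold change of -2.76 (SE 0.31) edgeR's adjusted p was 0.0593. The tumour libraries stood at 209 FPKM in males and 145 in females. About 12.1% of its exonic length lies under exons of another gene on the opposite strand.

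Idi1, isopentenyl diphosphate isomerase, had the largest difference of the pathway without passing (log2 fold change -3.17, SE 0.34, edgeR adjusted p = 0.0554). Its level was 97.6 and 7.20 FPKM in male normal and precancerous liver and 54.1 and 8.53 FPKM in female liver. Fdps, farnesyl diphosphate synthase, fell in males (43.8 to 9.64 FPKM) and in females (39.7 to 10.99 FPKM) (log2 fold change -2.01, SE 0.19, edgeR adjusted p = 0.0492). Of the exonic length of Fdps, 26.7% is shared with another gene on the same strand, so reads there could be counted for either.

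In contrast, Ggps1, which diverts farnesyl diphosphate to geranylgeranyl diphosphate for protein prenylation, differed least in the mevalonate arm (3.87 and 3.68 FPKM in males, 3.97 and 3.31 in females). The kinases Mvk and Pmvk and the decarboxylase Mvd differed by -1.41, -1.22 and -1.57 on the log2 scale and did not pass (edgeR adjusted p from 0.0613 to 0.1003).

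Past squalene, Sqle, squalene epoxidase, fell in males (14.5 to 5.17 FPKM) and in females (15.6 to 5.62 FPKM) (log2 fold change -1.48, SE 0.14, edgeR adjusted p = 0.0486). In the tumour libraries Sqle stood above normal liver, at 36.5 and 33.8 FPKM. Cyp51, lanosterol demethylase, and Msmo1, the C4-methyl sterol oxidase of a later step, fell by 2.40 and 2.34 on the log2 scale (SE 0.23 and 0.18). Msmo1 stood at 29.0 and 29.4 FPKM in the male and female normal libraries, at 4.88 and 6.70 in precancerous liver and at 18.7 and 17.5 in the tumours, so its precancerous libraries were the lowest of all 6. Nsdhl, the next enzyme of C4 demethylation, stood at 42.1 and 6.36 FPKM in male and at 38.4 and 12.1 FPKM in female normal and precancerous liver, and was called in the fit on 4 libraries alone (edgeR adjusted p = 0.0698 in all 6).

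Acat2 at the entry of the pathway, Fdft1 (squalene synthase), Hsd17b7 and Dhcr7 differed by -1.27, -1.29, -1.73 and -1.30 on the log2 scale, with edgeR adjusted p from 0.0550 to 0.0593, and all were called in the fit on 4 libraries. Lss, which closes the sterol rings, was at 4.52 and 2.59 FPKM in males and 4.67 and 3.12 in females and was called in neither fit. The late steps varied more. Sc5d, a sterol desaturase, had a log2 fold change of -0.87 and did not pass. Ebp was the 1 gene of the 21 whose pairs went opposite ways, with 34.5 and 35.8 FPKM in males and 68.8 and 37.0 in females. Tm7sf2, a sterol reductase, differed from its neighbours in the tumour libraries, where it stood at 5.05 and 6.16 FPKM, close to the 5.59 and 9.48 FPKM of precancerous liver and below the 13.7 and 20.8 FPKM of normal liver.

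**Figure D2:**
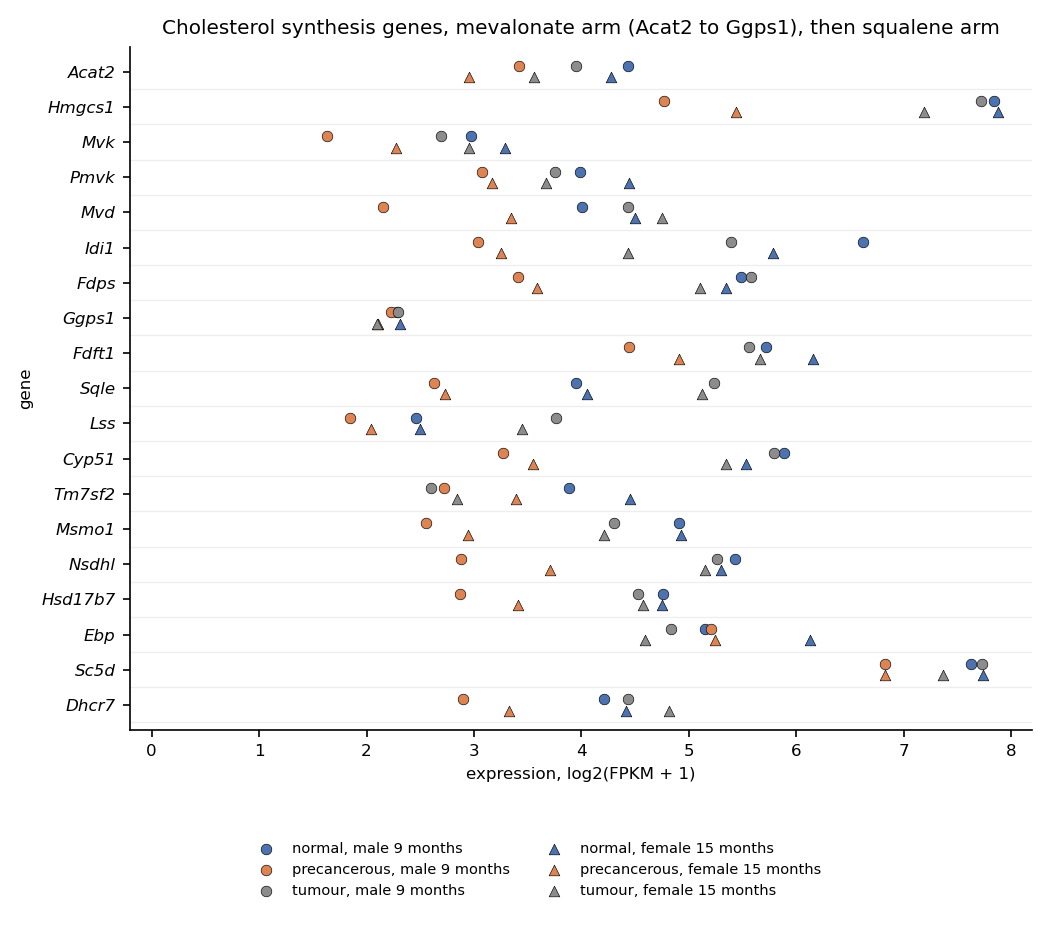
Level of 19 cholesterol synthesis genes, log2(FPKM + 1), in the 6 libraries, with circles for 9-month males, triangles for 15-month females, and colours for normal (blue), precancerous (orange) and tumour (grey). The precancerous libraries lie left of the normal ones of their cohort in 18 of the 19 genes, the exception being Ebp in males.

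Of 20 tested genes that sense and move sterols, 0 passed in edgeR on 6 libraries (8 at an unadjusted p under 0.05), and DESeq2 called 2 higher and 4 lower. Both pairs were higher for 6 and lower for 9, against 31.2% and 32.8% of all genes tested. The median log2 fold change was -0.07. Srebf2, which encodes SREBP-2, stood at 11.03 and 6.17 FPKM in male and at 21.6 and 10.7 FPKM in female normal and precancerous liver (log2 fold change -0.93, SE 0.14, edgeR adjusted p = 0.0875), and it was called lower in the fit on 4 libraries. Insig1, which holds the SREBP complex in the endoplasmic reticulum, had a log2 fold change of -0.70 and Scap, its partner, of -0.62. On the efflux side, Abcg1, a cholesterol exporter, was at 1.67 and 3.70 FPKM in males and 2.28 and 4.97 in females (log2 fold change 1.13, SE 0.13, edgeR adjusted p = 0.0621), and Abca1 had a log2 fold change of 0.65.

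Of 24 fatty acid synthesis genes tested, 1 passed: Elovl3 (chr19:46131897-46135307), an elongase of very long chains, fell in males (357 to 6.02 FPKM) and in females (2.39 to 0.178 FPKM) (log2 fold change -5.55, SE 0.41, edgeR adjusted p = 0.0311). Its female counts were 63 and 4, and the tumour libraries held 2 counts in males and 0 in females. The fit on 4 libraries called 2 of the list higher and 1 lower, and DESeq2 called 4 higher and 3 lower. Both pairs were higher for 12 of the list and lower for 6, against 31.2% and 32.8% of all genes tested. Srebf1, which encodes the lipogenic SREBP-1, stood at 17.6 and 69.6 FPKM in male and 33.6 and 81.8 FPKM in female normal and precancerous liver, with lower levels again in the tumours (27.7 and 29.2 FPKM). Its log2 fold change was 1.61 (SE 0.26, edgeR adjusted p = 0.1003). Pnpla3 and the desaturase Scd2 were also at least 2-fold higher in both pairs without passing in edgeR on 6 libraries. Srebf1 and Scd2 were called higher in the fit on 4 libraries.

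For some lipogenic genes, chosen after their values were seen, the male pair differed more than the female pair. Fasn, fatty acid synthase, was at 33.6 and 116 FPKM in male but at 77.2 and 83.6 FPKM in female normal and precancerous liver, and Thrsp at 87.8 and 309.6 against 124 and 140.4 FPKM. Elovl6 was at 8.74 and 37.6 FPKM in males and at 7.17 and 15.0 in females. The median difference of the list on the log2(FPKM + 1) scale was 0.71 in males and 0.04 in females, and the difference between the cohorts was not tested.

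Of 18 lipid droplet and lipase genes 1 rose, Pnpla5 (chr15:84112621-84123175), a lipase of the patatin-like family. It had 0 counts in male normal liver and 19 in male precancerous liver, which is at least 5.51-fold higher when the normal library is set to the limit of 3 counts; females had 2 and 45 counts, a 26.4-fold ratio with an exact 95% interval from 6.90 to 225 for counting error. Its tumour libraries stood at 34.1 and 39.7 FPKM. Plin5, which ties lipid droplets to mitochondria, was at 11.1 and 5.83 FPKM in males and 12.5 and 5.83 in females, and Fitm1 at 19.1 and 5.39 and at 8.71 and 3.50; both were called lower in the fit on 4 libraries alone.

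For fatty acid oxidation and ketogenesis, 1 of 27 tested genes passed and was lower. The fit on 4 libraries called 3 lower and DESeq2 called 5 lower. In both pairs 19 were lower and 2 higher, against 32.8% and 31.2% of all genes tested. The median log2 fold change was -0.45. Acsf2 (chr11:94557102-94601871), a mitochondrial acyl-CoA synthetase, fell in males (37.4 to 6.33 FPKM) and in females (57.1 to 10.994 FPKM) (log2 fold change -2.47, SE 0.12, edgeR adjusted p = 0.0214). It was also called in both limma fits on FPKM. Angptl4, an inhibitor of lipoprotein lipase induced by fasting, had a log2 fold change of -1.37 and Pdk4, a kinase that shuts off pyruvate dehydrogenase in fasting, of -1.70; neither passed (edgeR adjusted p = 0.0698 and 0.0829). The 2 genes higher in both pairs were Ppara, the fasting receptor of this pathway, and Cpt1a, its gatekeeper at the mitochondrial membrane, with log2 fold changes of 0.45 and 0.22.

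Bile acid synthesis had 1 gene of 18 that fell, Cyp8b1 (chr9:121914356-121916305), the sterol 12-alpha-hydroxylase that makes cholic acid. Cyp8b1 stood at 132 and 10.5 FPKM in male and at 121 and 17.7 FPKM in female normal and precancerous liver (log2 fold change -3.22, SE 0.27, edgeR adjusted p = 0.0377), and its tumour libraries were lower still, at 2.30 and 4.12 FPKM. Cyp7a1, the rate-limiting enzyme of the classic route, stood higher in both pairs: 17.9 and 57.6 FPKM in males and 47.6 and 69.9 in females (log2 fold change 0.90, SE 0.99, edgeR adjusted p = 0.715; -0.035 without male normal liver). In 10 of the 18 genes both pairs were lower and in 4 both were higher, against 32.8% and 31.2% of all genes tested. The median log2 fold change was -0.23. Of 15 transport genes none passed in edgeR on 6 libraries (6 at an unadjusted p under 0.05), while edgeR on 4 called 1 higher and 1 lower and DESeq2 1 higher and 3 lower. The bile salt export pump Abcb11 was at 145 and 48.8 FPKM in males and 79.9 and 41.7 in females (log2 fold change -1.26, SE 0.21, edgeR adjusted p = 0.105).

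Among 21 tested clock genes 1 passed. Noct (chr3:51224447-51251644), nocturnin, a protein with a strong daily rhythm in liver, fell in males (17.3 to 2.17 FPKM) and in females (27.9 to 2.54 FPKM) (log2 fold change -3.24, SE 0.21, edgeR adjusted p = 0.0251), and the tumours were at 0.921 and 0.939 FPKM. In 17 of the 21 both pairs were higher and in 4 both were lower, against 31.2% and 32.8% of all genes tested. The 4 were Noct, Nr1d1 and the activators Arntl (BMAL1) and Clock. The median log2 fold change was 0.69.

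Arntl stood at 3.85 and 0.849 FPKM in male and 1.35 and 0.549 FPKM in female normal and precancerous liver (log2 fold change -1.80, SE 0.72, edgeR adjusted p = 0.324). The repressors Per2 and Per3 lay the other way: Per2 was at 4.06 and 16.6 FPKM in males and 7.12 and 15.9 in females (log2 fold change 1.55, SE 0.25, edgeR adjusted p = 0.102). Per3 was at 0.761 and 5.75 and at 3.85 and 8.53 FPKM. Wee1, a clock-controlled kinase of the cell cycle, was at 0.687 and 9.12 FPKM in males and 3.27 and 8.22 in females, and the output factors Dbp and Tef had log2 fold changes of 1.05 and 0.99. The male pair differed more than the female pair for Arntl, Per2, Per3, Wee1 and Dbp. With 1 library a side and no hour of collection in the sources used here, the part of sampling time in these values was not tested.

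**Figure D3:**
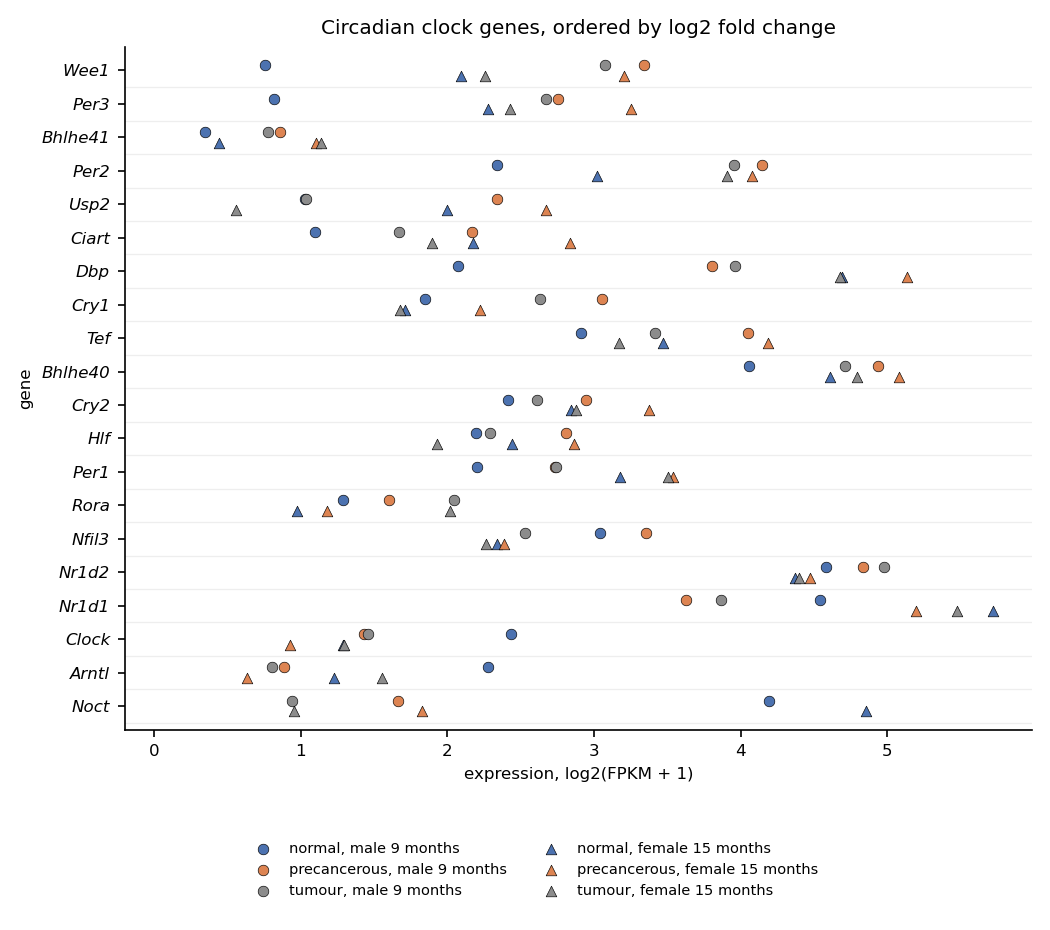
Level of 20 tested circadian clock genes, log2(FPKM + 1), in the 6 libraries, ordered by log2 fold change between precancerous and normal liver, with circles for males and triangles for females. Noct, at the bottom, is the 1 gene that passed the test, and Arntl, Clock and Nr1d1 are the other three with lower precancerous levels in both cohorts.

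On the log2(FPKM + 1) scale, which shrinks differences at low levels, the lists of sex-biased liver genes differed chiefly in the males. Of 22 male-biased genes 2 fell, Elovl3 and Mup12, while edgeR on 4 libraries called 4 lower and DESeq2 called 3. In both pairs 9 were lower and 1 higher, against 32.8% and 31.2% of all genes tested. The median difference was -1.34 in males and 0.07 in females. By ratio, Mup12 was 7.67-fold lower in males and 7.46-fold in females, and Elovl3 59.2-fold and 13.4-fold. Mup12, a major urinary protein, fell in males (752 to 98.1 FPKM) and in females (2.14 to 0.287 FPKM), where it had 35 and 4 counts (log2 fold change -2.90, SE 0.16, edgeR adjusted p = 0.0214). Mup11, outside the list, fell alongside (605 to 84.2 FPKM in males, 1.09 to 0.249 in females; edgeR adjusted p = 0.0404). Mup genes are near-identical copies, so the counts of single members are uncertain. Mup7 and Mup20 were at 8097 and 1804 and at 5027 and 1748 FPKM in male normal and precancerous liver, whereas Mup3 was at 5097 and 4874 FPKM.

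No female-biased gene of 22 tested passed in edgeR on 6 libraries (3 at an unadjusted p under 0.05) or in DESeq2, and edgeR on 4 called 2 higher, with a median difference of 1.73 in males and 0.30 in females. Cyp2b9 was at 0.444 and 105 FPKM in males and 381 and 309 in females. Cux2, a factor specific to female liver, was at 0.0482 and 1.25 FPKM in males and 2.995 and 7.21 in females, and with Cyp2a4 and Cyp3a44 it was at least 2-fold higher in both pairs. A1bg, a strongly female gene, was at 0.637 FPKM in male precancerous liver against 366 and 334 FPKM in females. None of these cohort differences was tested.

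Among hormone receptors, Lepr (chr4:101717404-101815352), the leptin receptor, rose in males (0.412 to 10.4 FPKM) and in females (0.603 to 6.97 FPKM) (log2 fold change 4.02, SE 0.34, edgeR adjusted p = 0.0377), and its tumour libraries stood at 12.7 and 16.1 FPKM. It was the 1 gene of 22 in the growth hormone and steroid receptor list to pass. In that list both pairs were higher in 13 genes and lower in 5, against 31.2% and 32.8% of all genes tested. Igfbp1, an IGF-binding protein raised by fasting and stress, was at 21.7 and 62.5 FPKM in males and at 63.1 and 166 in females (edgeR adjusted p = 0.120), and the feedback inhibitors Socs2 and Socs3 had log2 fold changes of 1.20 and 1.30; all 3 were called higher in the fit on 4 libraries. Of 15 genes that answer to feeding, glucocorticoids and stress hormones none passed in edgeR on 6 libraries (6 at an unadjusted p under 0.05). The fit on 4 called 2 higher and 2 lower and DESeq2 2 higher and 1 lower. In both pairs 6 were higher and 6 lower, against 31.2% and 32.8% of all genes tested. The metallothioneins Mt1 and Mt2 were at 14.2 and 333 and at 7.50 and 191 FPKM in males, beside 165 and 430.0 and 68.6 and 162 FPKM in females.

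Among ERK feedback and target genes, which RAS signalling is known to induce, the call depended on the tool. Of 18 tested edgeR called 0 on 6 libraries (8 at an unadjusted p under 0.05) and 0 on 4, and DESeq2 called 4 higher. Of all genes tested 15.8% had an unadjusted edgeR p under 0.05, and 31.2% were higher and 32.8% lower in both pairs. Leaving out either tumour library gave 1 call, and 14 were higher and 1 lower in both pairs (median log2 fold change 0.56). Spry4, an inhibitor of receptor signalling, was at 1.56 and 7.28 FPKM in males and 3.04 and 6.53 in females. Dusp6, the ERK phosphatase, was at 11.3 and 39.1 FPKM in males and 18.7 and 29.2 in females (log2 fold change 1.18, SE 0.30, edgeR adjusted p = 0.193). The immediate-early genes Egr1 and Ier3 were at least 2-fold higher in both pairs, Egr1 with 0.266 and 1.83 FPKM in males and 2.003 and 5.64 in females. For Dusp6, Egr1, Ier3, Dusp4 and Dusp5 the tumour libraries stood above the precancerous ones of both cohorts (for Dusp6, 67.1 and 59.4 FPKM). Of 18 tested genes of the RAS-to-ERK chain itself none passed in either edgeR fit (0 at an unadjusted p under 0.05 on 6 libraries) or in DESeq2, with a median of 0.03.

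The summed level of 24 fetal liver and tumour markers was 64.9 and 192 FPKM in male normal and precancerous liver. In females it was 54.6 and 283 FPKM, and in the male and female tumours 1752 and 2550 FPKM. Over the tested members the median difference on the log2(FPKM + 1) scale was 0.33 in males and 1.31 in females. Of 21 tested 1 rose, Akr1c18 (chr13:4132615-4150654), a 20-alpha-hydroxysteroid dehydrogenase, while the fit on 4 libraries called 6 higher and DESeq2 called 7. Both pairs were higher for 14 and lower for 1, against 31.2% and 32.8% of all genes tested, and the median log2 fold change was 1.64. The list was chosen with earlier results of these data known, so its counts and sums describe it and test nothing. Its members Mdk, Igf2 and Dlk1 were under the level for testing. Akr1c18 had 2 counts in each normal library, and 75 and 389 in male and female precancerous liver. These are ratios of 32.6 (exact 95% interval 8.72 to 274) and 228 (62.8 to 1891), and the levels were 8.24 and 19.6 FPKM, beside 220.5 and 194 FPKM in the tumours. Akr1c18 was not called under the other 2 scalings.

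Tff3, a secreted trefoil peptide, was at 2.71 and 79.5 FPKM in males, and in females it had 0 and 487 counts, at least 190-fold higher with the normal library set to that limit (edgeR adjusted p = 0.0655). Gpc3, glypican-3, a carcinoma marker, was at 0.107 and 2.71 FPKM in males and at 0.109 and 36.7 in females, and Afp, alpha-fetoprotein, at 0.547 and 1.16 and at 0.0663 and 7.19 FPKM. The female precancerous library had the higher level of the 2 for Gpc3, Afp, Ly6d (2.34 and 20.0 FPKM in males and females) and Cbr3 (0.496 and 10.8 FPKM). The tumour levels of Gpc3 were 99.5 and 118 FPKM. Whether tumour cells in the precancerous pieces take part in these levels was not tested.

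Growth arrest and death genes gave 2 calls. Btg2 (chr1:134075170-134079120), an antiproliferative p53 target, rose in males (2.74 to 10.2 FPKM) and in females (2.77 to 10.9 FPKM) (log2 fold change 1.93, SE 0.12, edgeR adjusted p = 0.0227), with tumours at 62.2 and 59.7 FPKM. It was the 1 of 24 tested genes in its list, whose median log2 fold change was 0.23, and Cdkn1a (p21) was at 3.36 and 0.708 FPKM in males and at 2.71 and 4.63 in females. Tnfsf10 (chr3:27317028-27342427), the death ligand TRAIL, rose in males (1.23 to 11.998 FPKM) and in females (1.48 to 9.86 FPKM) (log2 fold change 2.98, SE 0.20, edgeR adjusted p = 0.0251). Its tumour libraries were between those levels, at 4.42 and 5.10 FPKM, and its receptor Tnfrsf10b was at most 0.545 FPKM in all 4 normal and precancerous libraries. Of 19 tested cell cycle genes none passed in edgeR (2 at an unadjusted p under 0.05) and 1 was called higher in DESeq2, with a median of 0.17.

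The remaining genes called belong to no list. Rps3a1 (chr3:86137940-86142702), a protein of the small ribosomal subunit, had the smallest adjusted p: it stood at 85.9 and 1.63 FPKM in males and at 79.1 and 2.52 in females (log2 fold change -5.26, SE 0.21, edgeR adjusted p = 0.0175), with tumours at 2.79 and 3.72 FPKM. The other 74 cytosolic ribosomal protein genes had log2 fold changes from -0.27 to 0.87 and none was called. Rps3a1 has near-identical copies elsewhere in the genome, among which the counting could split its reads, so its value is uncertain. Gm43305 fell in males (22.7 to 3.11 FPKM) and in females (15.8 to 2.89 FPKM), and Gm6484 rose from 29.3 to 121 FPKM and from 26.5 to 137 FPKM.

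Among lower genes, Ethe1 (chr7:24587543-24608925), the mitochondrial dioxygenase that clears hydrogen sulfide, fell in males (26.9 to 8.70 FPKM) and in females (35.9 to 11.1 FPKM) (log2 fold change -1.67, SE 0.11, edgeR adjusted p = 0.0273). Tlcd2, a membrane lipid protein, Arrdc2, an arrestin-domain protein, and Thnsl2, related to threonine synthase, fell by 1.80, 1.63 and 1.41 on the log2 scale, with tumour levels below normal liver in each cohort. Of the exonic length of Tlcd2, 10.6% is shared with another gene on the same strand. Arhgef10, a guanine nucleotide exchange factor, was low throughout and fell in males (1.18 to 0.185 FPKM) and in females (1.11 to 0.239 FPKM). It reached an FPKM of 1, the level for testing, in the normal libraries alone.

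Among higher genes, Clca3a1 (chr3:144729677-144760977), of the calcium-activated chloride channel regulators, rose in males (1.502 to 6.17 FPKM) and in females (2.38 to 10.1 FPKM) (log2 fold change 2.06, SE 0.11, edgeR adjusted p = 0.0214). Fam46a, a poly(A) polymerase of the cytoplasm, rose in both cohorts (2.59 to 7.399 FPKM in the male pair, 3.04 to 8.28 in the female one). Armcx4, an X-linked armadillo-repeat gene, rose in both cohorts (0.605 to 4.65 FPKM in the male pair, 0.312 to 2.04 in the female one). Adam11, a disintegrin without protease activity, rose in both cohorts (1.26 to 4.92 FPKM in the male pair, 1.21 to 5.72 in the female one), and it was the 1 gene of the 12 whose tumour libraries (0.313 and 0.539 FPKM) lay below normal liver. Osbpl3, an oxysterol-binding protein, rose in both cohorts (0.238 to 0.768 FPKM in the male pair, 0.138 to 0.685 in the female one), with tumours at 6.56 and 4.71. Its FPKM was under 1 in all 4 normal and precancerous libraries, so only the tumour libraries brought it into the test. Gldn, gliomedin, had 4 and 110 counts in males and 1 and 294 in females, ratios of 23.9 (exact 95% interval 9.08 to 89.4) and 345 (61.4 to 13672).

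**Figure D4:**
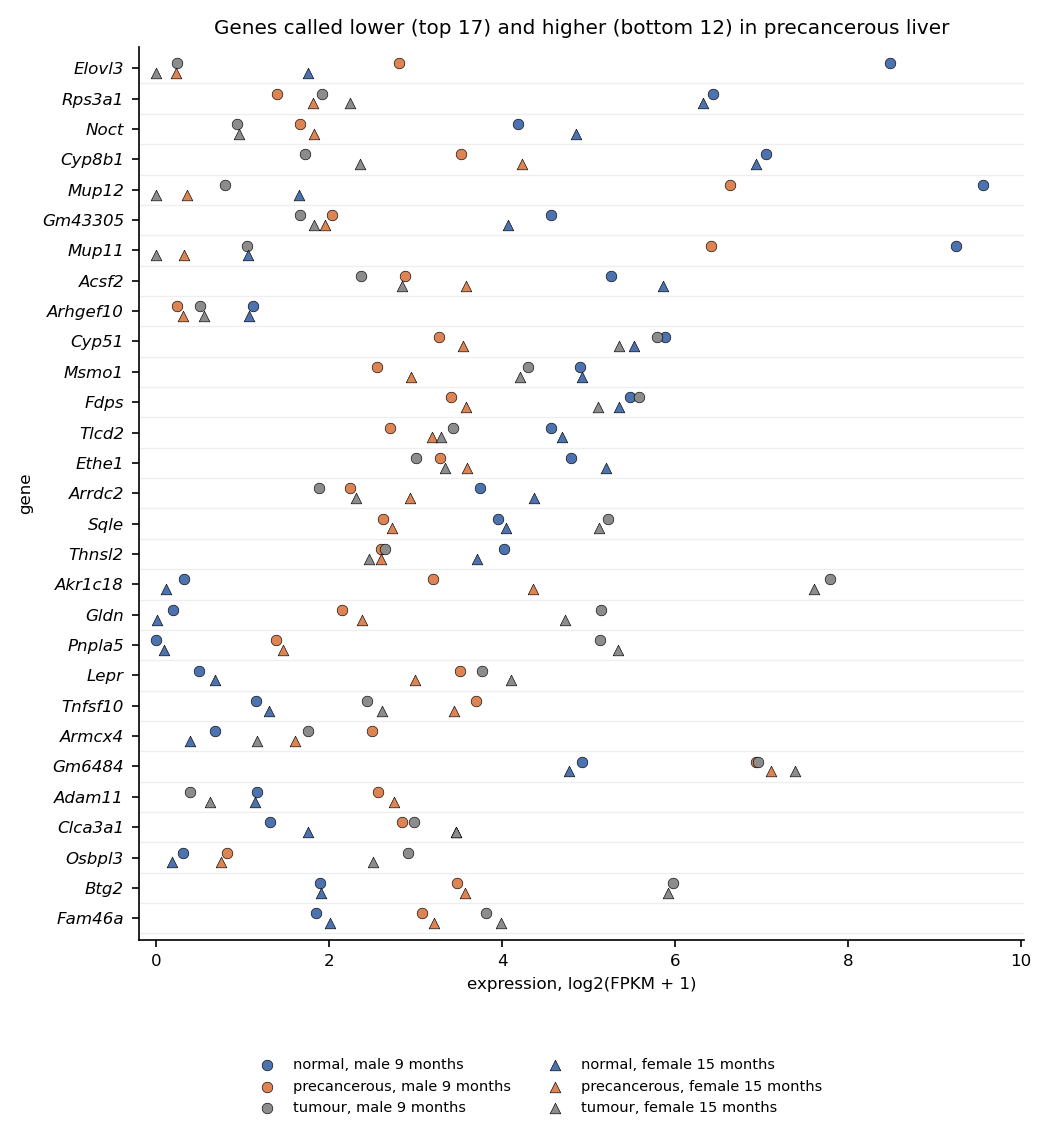
Level of the 29 called genes, log2(FPKM + 1), in the 6 libraries, the 17 lower ones at the top and the 12 higher ones below, with circles for males, triangles for females and colours for normal (blue), precancerous (orange) and tumour (grey). The precancerous and normal libraries of a cohort lie apart for every gene, and the cholesterol genes Cyp51, Msmo1, Fdps and Sqle have tumour libraries that lie above the precancerous ones.

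Other lists gave small differences without a call in edgeR on 6 libraries. Of all genes tested, 31.2% were higher and 32.8% lower in both pairs, and 15.8% had an unadjusted edgeR p under 0.05. There 0 of 28 proteasome subunits passed (12 at an unadjusted p under 0.05; DESeq2 called none), yet 27 were lower in both pairs, with a median log2 fold change of -0.30. Of 31 genes of amino acid breakdown 20 were lower and 0 higher in both pairs (median -0.35), and of 28 nuclear-encoded genes of oxidative phosphorylation 20 were lower and 0 higher (median -0.26). No member of these 2 lists passed in either edgeR fit (9 and 5 at an unadjusted p under 0.05 on 6 libraries), and DESeq2 called 3 lower among the 31 and none among the 28. Both pairs were higher for 17 and lower for 1 of 25 acute phase genes, higher for 15 and lower for 5 of 29 complement and coagulation genes, and higher for 24 and lower for 4 of 35 interferon response genes. None of these passed in edgeR on 6 libraries (9, 7 and 12 at an unadjusted p under 0.05), while DESeq2 called 5, 4 and 2 higher and 0, 1 and 1 lower. Orm3, an acute phase glycoprotein, was at 6.90 and 44.7 FPKM in males and at 7.18 and 24.7 in females (edgeR adjusted p = 0.0655). Hamp, hepcidin, the hormone of iron balance, was at 1079 and 216 FPKM in males and at 1984 and 969.8 in females.

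**Figure D5:**
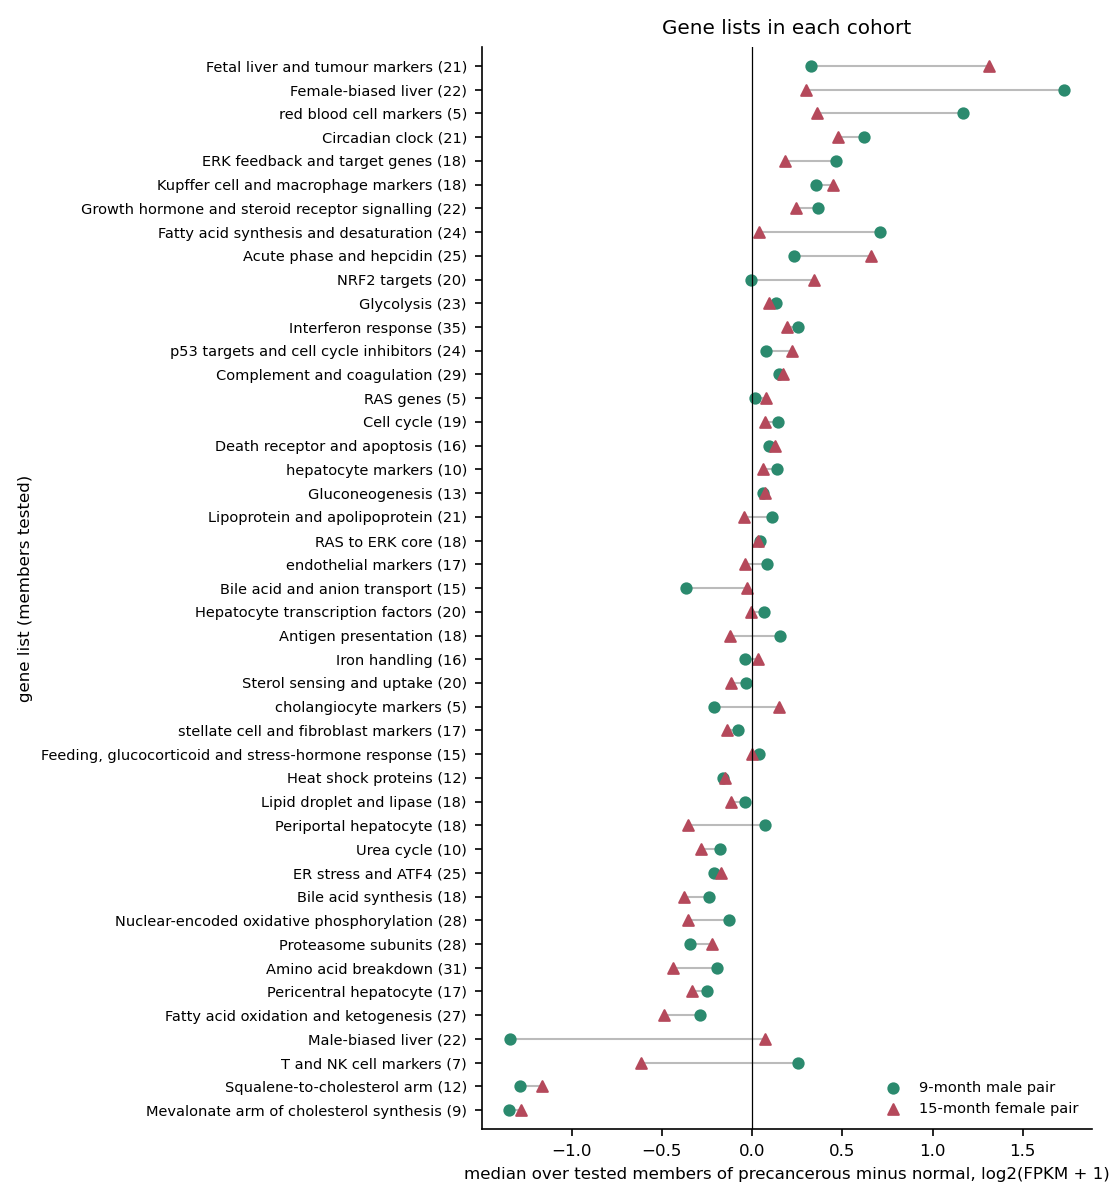
Median difference between precancerous and normal liver on the log2(FPKM + 1) scale over the tested members of each gene list with at least 5 of them, circles for the male pair and triangles for the female pair. The cholesterol arms lie furthest to the left with both cohorts together, at -1.35 and -1.28 for the mevalonate arm, whereas the sex-biased lists have their 2 cohorts far apart.

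Markers of other cell types moved as follows. Fewer cells of a type and less RNA per cell cannot be told apart in bulk tissue. Of 18 Kupffer cell and macrophage markers 17 were higher in both pairs, against 31.2% of all genes tested. The summed level of the 18 was 422 and 558 FPKM in male and 523 and 719.6 FPKM in female normal and precancerous liver. None passed in edgeR on 6 libraries (14 at an unadjusted p under 0.05), DESeq2 called 3 higher, and Marco, a scavenger receptor, passed in edgeR on 4, at 5.88 and 13.05 FPKM in males and 14.8 and 30.0 in females. All 3 tested B and plasma cell markers, Ighm, Igkc and Jchain, were lower in both pairs, with a summed level over the 11 markers of 34.8 and 17.8 FPKM in males and of 580 and 50.4 FPKM in females. Over 52 tested immunoglobulin genes none passed in edgeR on 6 libraries (19 at an unadjusted p under 0.05). EdgeR on 4 called 4 lower and DESeq2 called 2 lower. In both pairs 28 were lower and 1 higher, against 32.8% and 31.2% of all genes tested. Some reached the FPKM for testing in the normal libraries alone, so the filter itself favoured a lower precancerous level. Igkv5-39, for one, was at 2.89 and 26.8 FPKM in male and female normal liver and at most 0.644 elsewhere. With the filter on the 4 libraries alone 27 of them were tested, and some, such as Igkj4 and Igkj5, had at most 3 counts in each. Their summed level was 86.3 and 50.6 FPKM in males, 847 and 81.0 in females, and 145 and 131 in the male and female tumours. The female normal library thus stood apart from all others. Stellate cell and endothelial markers had medians of -0.09 and 0.02. The cholangiocyte markers Krt19, Krt7, Cldn4 and Cldn7 were under the level for testing. The part of these cell types in the results above was not tested.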

How the data were processed

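Messenger RNA was measured in 6 libraries of mouse liver or liver tumour tissue, and was sequenced with a stranded library kit, per the labels' protocols. Whether counting used the strand is not stated in the sources. The authors deposited 1 table with raw counts per gene and with FPKM for each library; the submitters' processing notes name TopHat2 2.0.9, Cuffdiff, GRCm38 and mm10. Count over FPKM gave the same gene length in each library, so the deposited FPKM are scaled to the library total. Library totals ran from 5996585 to 18434508 counts, and intervals and the limit of 3 counts cover counting error only.

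Counts were tested with edgeR 4.0.16 (R 4.3.3; TMM, quasi-likelihood, two-sided) on all 6 libraries with tissue and cohort as terms, which leaves 2 residual degrees of freedom; p-values were adjusted over 11435 genes. FPKM were compared within a cohort as log2(FPKM + 1). The code was tested on simulated data. Alternatives were a 4-library fit, no cohort block, other scalings, DESeq2 1.42.0, limma 3.58.1 on FPKM, other filters, and each library left out.

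The comparison and the 51 gene lists (895 genes, 799 tested) were chosen with earlier results of these data known. Named were the called genes, up to 4 members per list with the largest difference in both cohorts, the RAS and sex-check genes, and up to 5 genes per direction with opposite cohorts; other names were chosen after their values were seen. Some members of the lists are counted but not reported by name here.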

Additional observations from a re-analysis of the deposited data

Results flagged for a closer look

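In 8 named genes precancerous liver was at least 2-fold above normal liver in one cohort and at least 2-fold below it in the other, on the log2(FPKM + 1) scale. Each cohort has 1 library a side, so these differences between cohorts were not tested. A total of 11 genes met this size with an FPKM of at least 5 in 1 of the 4 libraries.

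Serpina1e, an antitrypsin of the alpha-1 family with male-biased expression, stood at 5466 and 1911 FPKM in male normal and precancerous liver and at 16.9 and 618 FPKM in female liver, a gap of -6.63 between the male and the female difference. The acute phase proteins Saa2 and Saa1 had gaps of -4.63 and -3.61: Saa2 was at 1658 and 154 FPKM in males and at 27.0 and 63.8 in females. Mup17, a major urinary protein, was at 958 and 166 FPKM in males and 39.8 and 104 in females (gap -3.89). Gstp2, a glutathione transferase, was at 11.9 and 3.58 and at 1.62 and 12.4 FPKM (gap -3.85). Near-identical copies make the counts of Serpina1e, Saa1, Saa2, Mup17 and Gstp2 uncertain.

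In 3 genes the male pair was higher and the female pair lower. The female-biased Cyp2b13 was listed at 0 and at 3.64 FPKM in males and at 195 and 82.8 FPKM in females (gap 3.44). Sult2a7, a sulfotransferase, was at 3.90 and 10.8 and at 173 and 66.2 FPKM (gap 2.64), and Gucd1 at 3.52 and 8.82 and at 7.63 and 2.58 FPKM (gap 2.39).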

How the results depend on the processing

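The count of genes called was 29 (12 higher, 17 lower) and moved with most settings. It was 213 (105 and 108) on the 4 normal and precancerous libraries, 368 (210 and 158) in DESeq2, 183 (97 and 86) with no filter, 9 (4 and 5) at an FPKM of at least 5, 3 (1 and 2) in limma with a pseudocount of 1, and 10 (5 and 5) in limma with 0.1. It was 0 (0 and 0) with no cohort block. With each library left out in turn it ran from 0 to 219 (0 to 111 higher, 0 to 110 lower). All 29 genes were called again on the 4 libraries, in DESeq2 and with no filter; 24 were under the other 2 scalings, 9 at an FPKM of at least 5, and 2 and 8 in limma. Without male normal, male precancerous, female normal or female precancerous liver 3, 3, 7 and 0 were. The within-cohort counts of 2-fold differences with a pseudocount of 0.1 were 473 higher and 334 lower in males, 388 and 270 in females, and 154 and 107 in both. On TMM-scaled counts per 1e+06 there were 355 higher and 242 lower in males, 237 and 167 in females, and 101 and 74 in both, against 53 and 59 on FPKM. The cause of these moves was not tested.

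With 1 library left out, the log2 fold change changed sign in 9 of the 169 uncalled genes for which it was recomputed. It ran from -0.78 to 0.077 for Cd24a (0.064 without male precancerous liver), -0.86 to 0.070 for Cd74, -0.95 to 0.091 for H2-Ab1, -3.30 to 0.088 for Jchain, -0.052 to 1.17 for Egfr, -1.12 to 0.41 for Glul (0.16 without male precancerous liver), -0.088 to 1.54 for S100a9, -0.77 to 4.50 for Cyp3a44 and -0.035 to 2.68 for Cyp7a1. No list median changed sign under the 3 scalings. In the lists with no call in edgeR on 6 libraries, both limma fits also called no member. Normal and precancerous liver were paired only by cohort, the block of the fit. Depth was lower in males, where 3 counts are 0.500 counts per 1e+06 in normal liver, against 0.170 in females.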

Other observations

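Some uncalled genes outside the lists differed widely in both cohorts; they were chosen after their values were seen. Aox3, an aldehyde oxidase, stood at 177 and 3.59 FPKM in male normal and precancerous liver and at 45.7 and 3.35 FPKM in female liver (edgeR adjusted p = 0.0554). Csad, which makes the taurine precursor hypotaurine, was at 83.3 and 5.70 FPKM in males and 37.5 and 8.66 in females (edgeR adjusted p = 0.0879). Nnt, the mitochondrial transhydrogenase, was at 14.2 and 6.72 FPKM in males and at 16.4 and 6.43 in females (edgeR adjusted p = 0.0698). Part of Nnt is known to be deleted in the substrain C57BL/6J, and the labels name C57BL/6 without a substrain.

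For other genes the 2 normal libraries were far apart. Cebpa, a master factor of hepatocytes, stood at 51.7 and 54.1 FPKM in male normal and precancerous liver but at 5.19 and 54.2 FPKM in females. Rgs16, an inhibitor of G-protein signalling, was at 2.50 and 86.7 FPKM in males and at 69.1 and 104 in females. Neither difference between cohorts was tested.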
